A study of Caenorhabditis elegans with 54 samples.

Results

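RNA of 8 genes that act in the decision between sperm and oocytes in the Caenorhabditis elegans hermaphrodite germline was compared between adult mutants. The genes were taken by their names in the files and not by any measured value, although earlier results of these data were known. They are tra-2 (C15F1.3), fem-3 (C01F6.4), fog-1 (Y54E10A.4), fog-3 (C03C11.2), fog-2 (Y113G7B.5), gld-1 (T23G11.3), fbf-1 (H12I13.4) and fbf-2 (F21H12.5). The files of the larger experiment hold 46003 gene names and those of a smaller one 45904. All 8 genes passed the filter on low counts in both assays and both experiments, and each was tested among 15376 features in mRNA and 15380 in small RNA.

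A hermaphrodite makes sperm first, late in larval life, and then changes to oocytes for good. The receptor TRA-2 promotes female fate by holding back the FEM proteins, which otherwise lead to the breakdown of the transcription factor TRA-1. In the germline, FOG-1 and FOG-3 act at the end of this pathway to specify sperm, and the choice between them and oocyte fate is set largely by control of mRNA translation. FOG-2 and the RNA-binding protein GLD-1 repress tra-2 mRNA so that sperm can be made, while the PUF proteins FBF-1 and FBF-2 repress fem-3 so that oocytes can follow. Germline mRNAs are also templates for antisense small RNAs, among them those that depend on mut-16, a scaffold protein of the perinuclear sites where such RNAs are amplified.

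The study measured mRNA in 24 libraries of 8 strains and small RNA of 18 to 30 nt in 30 libraries of 10 strains, with 3 libraries per strain and assay. Each sample was RNA of 8000 whole day 1 adults, so the larval time of sperm formation was not sampled. The 8 strains with both assays were grown at 20 °C for about 64 h. Of these, 3 carry deletions: eri-6[e-f] (cmp261), sosi-1 (cmp262) and sosi-1 eri-6[e-f] (cmp263), the last called the double deletion below. Another 3 strains carry the same deletions with mut-16(pk710), and the one with the double deletion is called the triple mutant. The remaining pair is prg-1(n4357); hrde-1(tm1200) and prg-1(n4357); ergo-1(tm1860), where prg-1 encodes the Piwi protein, hrde-1 a nuclear Argonaute of the germline and ergo-1 an Argonaute of another class of small RNAs. The smaller experiment holds small RNA only, from prg-1(n4357) and ergo-1(tm1860) single mutants, and its labels name more than 1 temperature without saying which was used. A wild-type strain was not analysed here, so every comparison is between mutants.

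Deposited totals ran from 13217989 to 93976553 counts in the mRNA libraries, from 8002988 to 42010626 counts in the small RNA libraries of the larger experiment and from 10939270 to 14728372 counts in those of the smaller one. sosi-1 mRNA had 0 counts in all 12 libraries labelled with its deletion, and ergo-1 mRNA lay between 2.81 and 4.15 CPM (counts scaled to a library total of 1000000) in prg-1; ergo-1 against at least 32.8 CPM elsewhere. The mRNA of mut-16, prg-1 and hrde-1 was present in the strains that carry their alleles, so counts did not check those labels. One prg-1; ergo-1 small RNA library, replicate 3, is labelled as mRNA-selected RNA. Replicate 1 of the prg-1; hrde-1 small RNA libraries stood apart from the other replicates, with a chi-square per degree of freedom over genes of 268.1 or more against 8.554 between those 2. In mRNA this value ran from 4.683 to 208 between replicates of a strain. It was highest in prg-1; hrde-1 (replicates 1 and 3), with 198.1 in eri-6[e-f] mut-16 (replicates 1 and 2). Because whole animals were used, fewer germ cells and less RNA per germ cell cannot be told apart in any result below. The labels do not say that replicates came from separate cultures, so p-values measure only the spread between these samples.

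Levels are given as CPM after TMM scaling, with the mean and SD over 3 libraries, and differences as log2 fold changes with their standard error from edgeR's quasi-likelihood test. A gene is called changed at a Benjamini-Hochberg adjusted p under 0.05, over all features tested, together with at least a 2-fold difference. fbf-1 and fbf-2 are near-identical copies that share reads, as do fog-2 and its paralog ftr-1. In 24 of 24 mRNA libraries the fbf-1 and fbf-2 counts were not whole numbers, while their sum was whole within 0.01 in 23. For fog-2 and ftr-1 this held in 10 of 24 libraries, with a whole sum in 24. In the small RNA of the larger experiment the sum was whole in 1 of 24 libraries for fbf-1 with fbf-2 and in 3 of 24 for fog-2 with ftr-1, so there the pairs do not account for all divided reads. The division of reads within each pair is therefore an estimate. The name of fem-3 has a second entry, which was 0 in all mRNA libraries, and both were summed.

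The mRNA levels of the switch genes differed most between strains for gld-1, tra-2 and fog-3 and least for fem-3. The mean of gld-1 ran from 227 CPM in eri-6[e-f], with libraries from 213.5 to 238.5 CPM, to 1040 ± 58.4 CPM in the triple mutant, and each strain overlapped the next in that order. For tra-2 the order ran from 19.2 ± 2.15 CPM in the double deletion to 59.6 ± 2.86 CPM in sosi-1, all neighbours overlapping, and then to the triple mutant, whose 3 libraries at 83.5 ± 6.08 CPM lay above all others. fog-2 had the reverse top end. Its mean ran from 29.1 ± 4.6 CPM in prg-1; hrde-1 to 61 ± 10.4 CPM in eri-6[e-f] with overlap at each step. Under TMM scaling the double deletion stood clear of these at 102 ± 8.1 CPM. The TMM factors, which multiply library size, were 0.6872 to 0.7305 in the double deletion and 1.056 to 1.093 in prg-1; ergo-1. By library size alone the fog-2 levels of the double deletion and prg-1; ergo-1 overlapped. fem-3 lay between 56.4 ± 6.15 and 64 ± 3.2 CPM in prg-1; hrde-1, sosi-1 and sosi-1 mut-16. In the other 5 strains fem-3 lay between 84.8 ± 2.31 and 92.8 ± 20.8 CPM, and sosi-1 mut-16 did not overlap the next strain in that order. These groups of strains did overlap, since eri-6[e-f] went down to 71.3 CPM and sosi-1 up to 74.2 CPM.

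**Figure D1:**
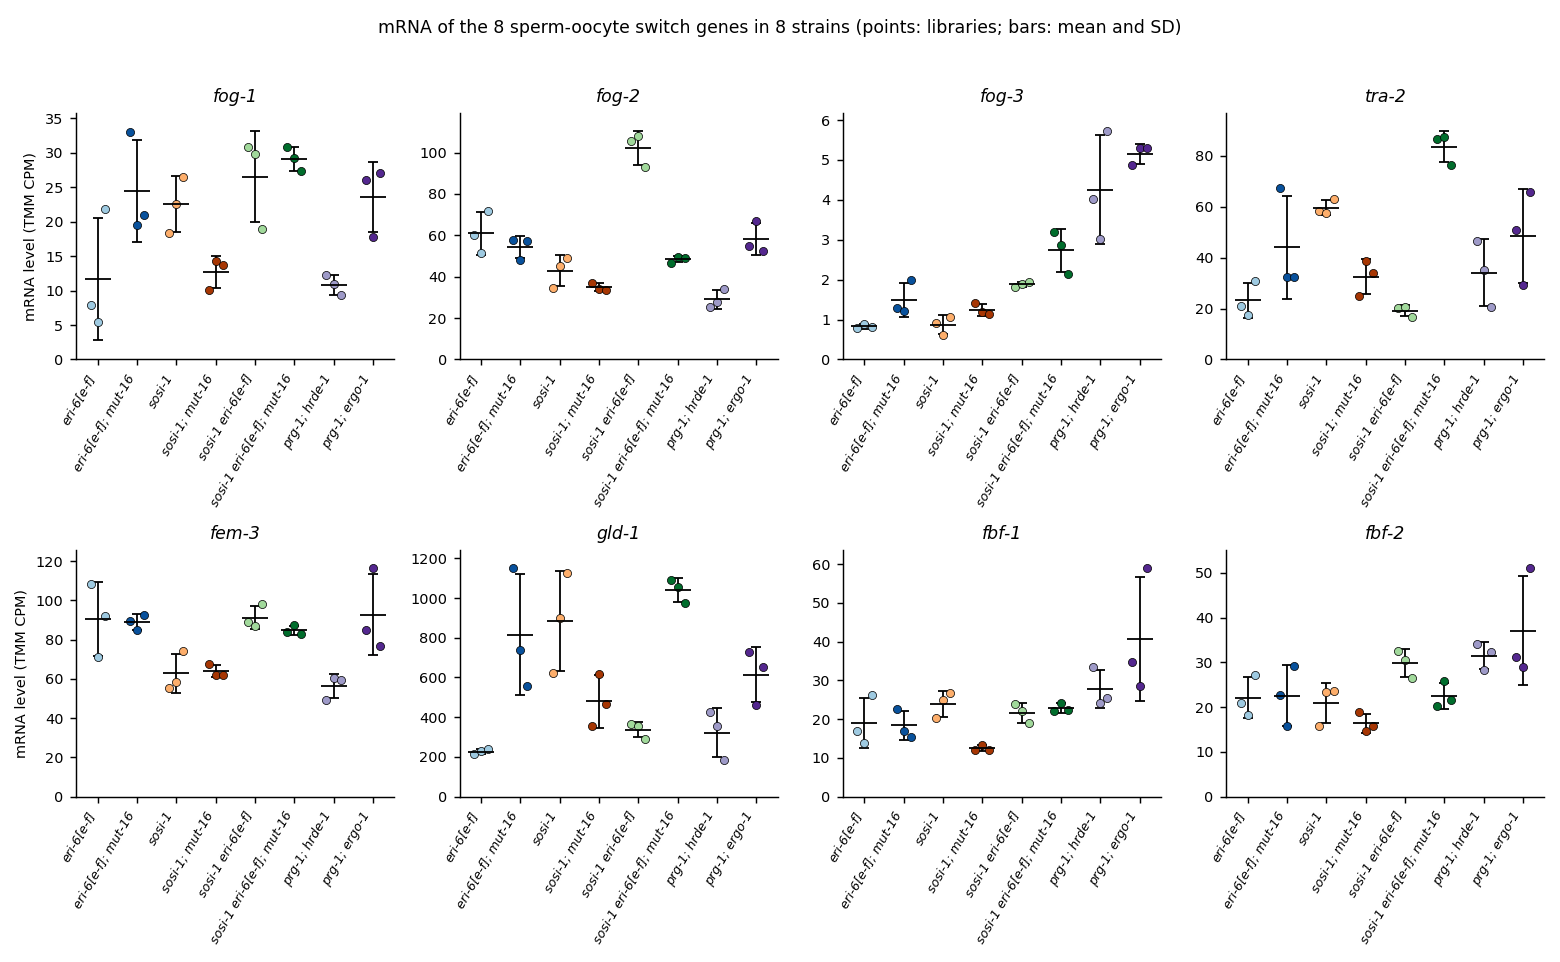
mRNA level in TMM-scaled CPM (vertical axes, each from 0) for the 8 switch genes in 8 strains; points are libraries, and bars give the mean and SD of 3. The double deletion is highest for fog-2 (102 ± 8.1 CPM) and lowest for tra-2 (19.2 ± 2.15 CPM), while the triple mutant is highest for tra-2 (83.5 ± 6.08 CPM).

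The lowest mean in every strain was that of fog-3. The other sperm-fate gene, fog-1, was above fbf-1 and fbf-2 in some strains. fog-3, a Tob-family protein gene, had 9 to 319 counts per mRNA library, and its strain means ran from 0.83 ± 0.062 CPM in eri-6[e-f] (sosi-1 had 0.873 ± 0.232 CPM) to 4.25 ± 1.36 CPM in prg-1; hrde-1 and 5.15 ± 0.251 CPM in prg-1; ergo-1. Gaps without overlap lay above sosi-1 and above the double deletion at 1.88 ± 0.0578 CPM, so both prg-1 double mutants and the triple mutant at 2.74 ± 0.543 CPM formed the upper group. fog-1, which encodes a CPEB-family RNA-binding protein, had its lowest means in prg-1; hrde-1 at 10.8 ± 1.47 CPM, eri-6[e-f] at 11.7 ± 8.83 CPM and sosi-1 mut-16 at 12.7 ± 2.31 CPM. The other strains had means of fog-1 between 22.5 ± 4.06 and 29.1 ± 1.73 CPM. In eri-6[e-f] the fog-1 libraries were at 7.84, 5.51 and 21.8 CPM, so 1 library set much of that mean and SD.

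fbf-1 was lowest in sosi-1 mut-16 at 12.4 ± 0.754 CPM, below every library of the next strain, and reached 40.8 ± 16 CPM in prg-1; ergo-1, where replicate 3 stood at 58.9 CPM against 34.8 and 28.6 CPM. fbf-2 was between 16.4 ± 2.2 and 22.6 ± 6.74 CPM in 5 strains. The higher means were those of the double deletion at 29.9 ± 3.16 CPM, prg-1; hrde-1 at 31.5 ± 2.96 CPM and prg-1; ergo-1 at 37.1 ± 12.2 CPM. These 3 strains did not overlap the triple mutant, next below them, but a library of eri-6[e-f] mut-16 reached 29.3 CPM and overlapped each of them. The estimated share of fbf-1 in the reads of both genes ranged from 34.6% to 56.1% over the mRNA libraries.

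Whether loss of mut-16 acts alike on these mRNAs in 3 deletion backgrounds was the main comparison. It called 2 of the 8 genes higher in the eri-6[e-f] background, where 25.7% of all features were called, 0 in the sosi-1 background, where 13.7% were called, and 3 in the double deletion, 2 higher and 1 lower, where 50.2% were called. Of all features 16.2%, 10.4% and 28.1% were called higher in these backgrounds, and 9.48%, 3.24% and 22.1% lower. The median log2 difference over the 8 genes was 0.435 in eri-6[e-f], −0.59 in sosi-1 and 0.104 in the double deletion, against 0.06, 0.04 and 0.09 over all features. In the sosi-1 background 4 of 8 genes had an unadjusted p under 0.05, 3 an adjusted p under 0.05, and DESeq2 also called 0. The effect itself differed between backgrounds for 4 of the 8 genes, gld-1, tra-2, fog-1 and fbf-1, by a test of both differences at once. Among all features 60.1% passed that test, so the share of the switch genes was no larger than the share of features in general.

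gld-1 encodes a KH-domain RNA-binding protein that represses many maternal mRNAs and is needed for oocyte meiosis as well as for sperm fate in hermaphrodites. Its mRNA was at 213.5, 228.3 and 238.5 CPM in eri-6[e-f] and at 1150, 739.7 and 555.6 CPM in eri-6[e-f] mut-16. All libraries with mut-16(pk710) were above all without it. In the sosi-1 background the order was turned, with 624.5, 897.6 and 1128 CPM without and 354.5, 618.7 and 467.4 CPM with mut-16(pk710), again with no overlap. The double deletion gave 363.7, 356.7 and 292.1 CPM against 1089, 1057 and 975.5 CPM in the triple mutant. gld-1 rose by 1.85 ± 0.29 on the log2 scale in eri-6[e-f] (edgeR adjusted p = 3.32e-05) and by 1.62 ± 0.29 in the double deletion (adjusted p = 2.54e-05). In sosi-1 its log2 difference was −0.88 ± 0.28 (adjusted p = 0.0275), short of 2-fold. The highest and lowest of the 3 effects differed by 2.73 (adjusted p of the test between backgrounds 1.28e-05). Leaving out the highest eri-6[e-f] mut-16 library left the rise in that background at 1.52 (adjusted p = 0.000416).

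tra-2 encodes the membrane receptor that promotes female fate and whose translation GLD-1 and FOG-2 repress. Its mRNA had 21.1, 17.6 and 30.8 CPM in eri-6[e-f] and 67.4, 32.3 and 32.2 CPM in eri-6[e-f] mut-16, so that 1 library of the second strain was far above the others. In sosi-1 it had 58.5, 57.5 and 62.9 CPM, and in sosi-1 mut-16 25.0, 38.8 and 33.8 CPM. The double deletion had 20.3, 20.5 and 16.7 CPM and the triple mutant 86.5, 87.5 and 76.5 CPM. In each background the strains did not overlap, with mut-16(pk710) the higher in eri-6[e-f] and the double deletion and the lower in sosi-1. Only the double deletion gave a call, a rise of 2.12 ± 0.32 (adjusted p = 2.56e-06). The log2 difference was 0.92 ± 0.31 in eri-6[e-f] (adjusted p = 0.0198) and −0.87 ± 0.31 in sosi-1 (adjusted p = 0.0411). Without eri-6[e-f] mut-16 replicate 1 the value in eri-6[e-f] was 0.48, while without eri-6[e-f] replicate 3 it reached 1.18 and was called. The spread of the 3 effects was 2.99 (adjusted p = 2.3e-05), the widest of the 8 genes.

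fog-1 mRNA had 7.84, 5.51 and 21.8 CPM in eri-6[e-f] and 32.97, 19.5 and 20.9 CPM in eri-6[e-f] mut-16, so replicate 3 of the first overlapped the second. It rose by 1.06 ± 0.33 (adjusted p = 0.0134). That call was lost without eri-6[e-f] replicate 1 (0.83), without eri-6[e-f] replicate 2 (0.71) and without eri-6[e-f] mut-16 replicate 1 (0.78), while without eri-6[e-f] replicate 3 the rise was 1.86. In sosi-1 fog-1 had 18.4, 22.6 and 26.5 CPM against 10.03, 14.3 and 13.7 CPM in sosi-1 mut-16, with no overlap, a log2 difference of −0.83 ± 0.32 and an adjusted p of 0.0654. In the double deletion 30.8, 29.8 and 18.9 CPM stood beside 30.9, 29.2 and 27.4 CPM in the triple mutant, which overlapped, with a difference of 0.13. The spread of the 3 effects was 1.88 (adjusted p = 0.00419). Over the 18 analyses that left out 1 library, that spread ranged from 1.46 to 2.69 and was called in each.

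fog-2, the F-box protein gene with which GLD-1 represses tra-2, was called lower in the double deletion, where gld-1 and tra-2 rose. The double deletion had 105.5, 108.1 and 93.0 CPM of fog-2 mRNA and the triple mutant 46.9, 49.7 and 49.3 CPM. No library of one came near the other, and fog-2 fell by 1.07 ± 0.18 on the log2 scale (adjusted p = 1.36e-05), although scaling by library size alone gave −0.51 and no call. In eri-6[e-f] the difference was −0.17, with 59.99, 51.2 and 71.9 CPM against 57.8, 48.0 and 57.1 CPM, and in sosi-1 it was −0.30. ftr-1, which shares reads with fog-2, had 53.9, 61.8 and 71.7 CPM in the double deletion and 20.9, 20.4 and 21.7 CPM in the triple mutant. ftr-1 fell by 1.57 ± 0.19 there (adjusted p = 1.99e-07). The spread of the fog-2 effects was 0.90 (adjusted p = 0.00672), under the 2-fold limit, and with both paralogs summed it was 1.084 and was called.

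The remaining 4 genes had no call for mut-16 in any single background. fog-3 was on the higher side in all 3, by 0.84 ± 0.32 in eri-6[e-f] (adjusted p = 0.0376), 0.51 in sosi-1 and 0.54 ± 0.23 in the double deletion (adjusted p = 0.0456). In eri-6[e-f] its libraries were at 0.784, 0.901 and 0.806 CPM against 1.28, 1.23 and 1.99 CPM, with no overlap. fbf-1 had 20.2, 25.0 and 26.6 CPM in sosi-1 and 11.99 to 13.3 CPM in sosi-1 mut-16, also with no overlap, a log2 difference of −0.94 ± 0.24 (adjusted p = 0.00663) that fell short of 2-fold. Its differences were −0.05 in eri-6[e-f] and 0.08 in the double deletion. The spread of its effects, 1.02 (adjusted p = 0.0214), was barely past 2-fold, and 0.63 (adjusted p = 0.184) once fbf-1 and fbf-2 were summed. It also lost its call in 7 of 18 analyses that left out 1 library, those without eri-6[e-f] mut-16 replicate 3, sosi-1 replicates 2 or 3, sosi-1 mut-16 replicates 1 or 3, double deletion replicate 3 or triple mutant replicate 2. fbf-2 had differences of 0.03, −0.35 and −0.41 and fem-3 of −0.03, 0.03 and −0.11 in eri-6[e-f], sosi-1 and the double deletion.

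**Figure D2:**
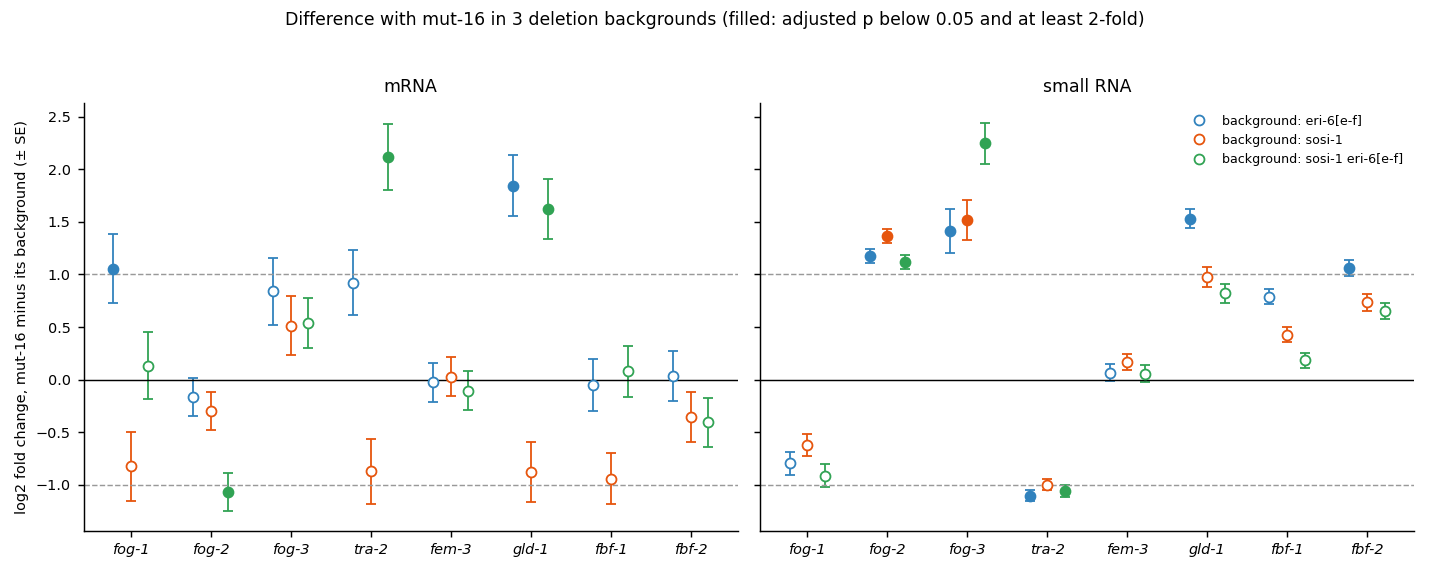
log2 fold change between strains with and without mut-16(pk710) (vertical axes) for the 8 switch genes in 3 deletion backgrounds, in mRNA and in small RNA; bars are standard errors, and filled points passed an adjusted p under 0.05 with at least a 2-fold difference. In mRNA gld-1 is at 1.85, −0.88 and 1.62 and tra-2 at 0.92, −0.87 and 2.12 in eri-6[e-f], sosi-1 and the double deletion, while in small RNA tra-2 is near −1 in each.

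Oocyte markers, taken as a sum, moved with the mRNAs of gld-1 and tra-2, but not with those of all switch genes. In the double deletion fog-2 fell while the sum rose. The summed mRNA of 20 oocyte genes was 4790 to 7020 CPM in eri-6[e-f] against 10300 to 19300 CPM in eri-6[e-f] mut-16, 11800 to 17700 CPM in sosi-1 and 5630 to 9570 CPM in sosi-1 mut-16, and 7920 to 11200 CPM in the double deletion and 15200 to 16900 CPM in the triple mutant. None of the 20 was at 0. Of the 20, 14 rose in eri-6[e-f], 5 fell in sosi-1, and 9 rose and 1 fell in the double deletion. lin-41, a regulator of oocyte growth, had 2.25 ± 0.35, −1.11 ± 0.34 and 2.66 ± 0.35, and rme-2, the yolk receptor gene, was called at −1.13 ± 0.40 in sosi-1 and 2.16 ± 0.42 in the double deletion. Scaled by library size alone, 1 fell in sosi-1, and 11 rose and 0 fell in the double deletion. The direction of gld-1 and tra-2 in each background was thus that of the oocyte sum, and the part of oocyte content in their values was not tested. For tra-2 the double deletion departed from that order across strains: at oocyte sums above those of eri-6[e-f], its level of 16.7 to 20.5 CPM lay within or below the 17.6 to 30.8 CPM of eri-6[e-f]. Its gld-1 level of 292.1 to 363.7 CPM was above that of eri-6[e-f], as its oocyte sum was, and overlapped the 354.5 to 618.7 CPM of sosi-1 mut-16, whose oocyte sums overlapped its own. Under TMM scaling fog-2 had no such order, being highest in the double deletion at a middle oocyte sum.

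**Figure D3:**
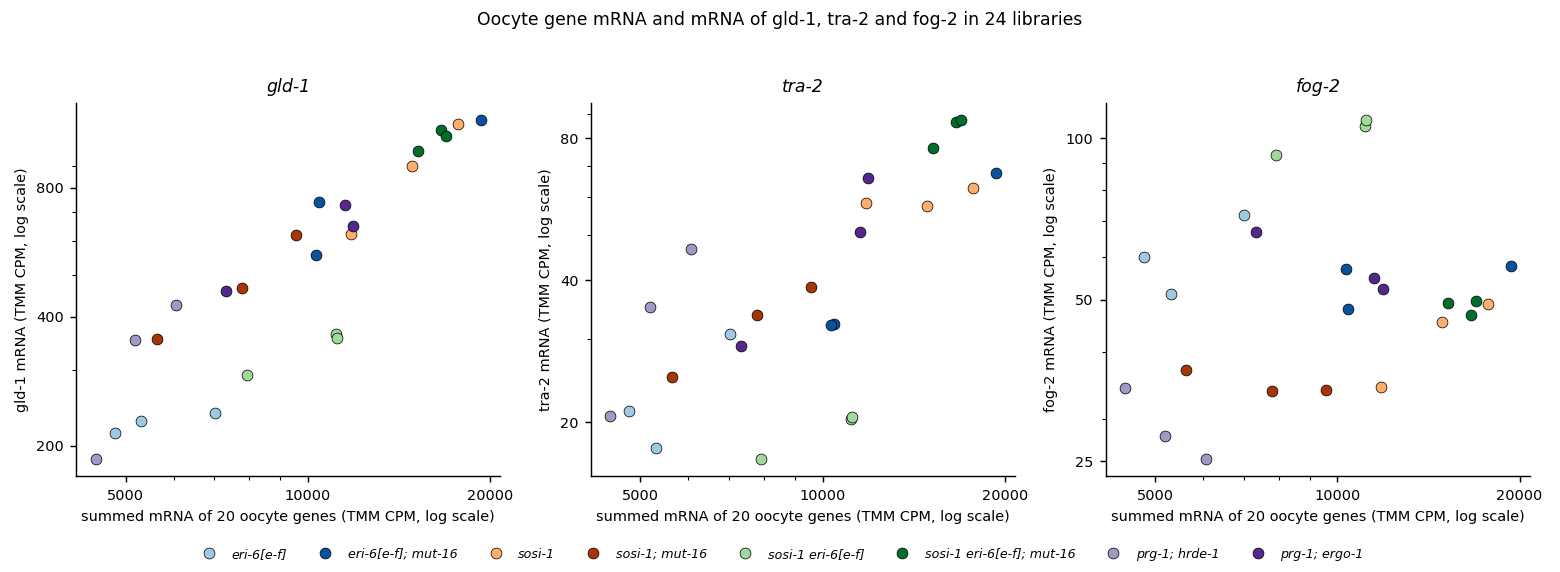
Summed mRNA of 20 oocyte genes (horizontal axes, TMM-scaled CPM, log scale) against the mRNA of gld-1, tra-2 and fog-2 (vertical axes, CPM, log scale) in 24 libraries coloured by strain. The double deletion, at oocyte sums of 7920 to 11200 CPM, has gld-1 at 292.1 to 363.7 CPM, tra-2 at 16.7 to 20.5 CPM and the highest fog-2, at 93.0 to 108.1 CPM.

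Sperm mRNAs rose in all 3 backgrounds, although the size of the effect differed between backgrounds for 29 of 42 genes. The sum over 42 sperm genes was 55.4 to 110 CPM in eri-6[e-f], 258 to 335 CPM in sosi-1 and 128 to 129 CPM in the double deletion. With mut-16(pk710) it was 592 to 742, 903 to 1010 and 745 to 825 CPM, and 38, 34 and 40 of the 42 genes rose with none falling. Among the switch genes only fog-3 had the higher side in all 3 backgrounds, without a call. Summed mRNA of 16 genes of intestine, muscle, hypodermis and neurons was 61600 to 87900 CPM in eri-6[e-f] against 31200 to 41000 CPM in eri-6[e-f] mut-16, 43700 to 60600 CPM in sosi-1 against 23300 to 27000 CPM in sosi-1 mut-16, and 34500 to 40200 CPM in the double deletion against 27600 to 32400 CPM in the triple mutant. Of these 16 genes, 2 were called higher and 5 lower in eri-6[e-f]. In sosi-1 0 were higher and 2 lower, and in the double deletion 1 higher and 5 lower. Their median log2 differences were only −0.109, −0.211 and −0.43. A sum over 18 genes of germline proliferation and meiosis was 1410 to 1790 CPM against 1840 to 3610 CPM, 2070 to 3050 CPM against 1560 to 1980 CPM, and 2110 to 2570 CPM against 3110 to 3360 CPM, in the same order of strains. Of the 18, 9 rose and 0 fell in eri-6[e-f], and 0 rose and 1 fell in sosi-1. In the double deletion 9 of them rose and 4 fell. Summed mRNA of 6 markers of the male soma, 2 of which, her-1 and mab-3, also stand in the pathway list below, was between 0.564 and 1.72 CPM in every library. The part of these shifts in the values of the switch genes was not tested.

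The 3 deletion strains also differed from each other without mut-16(pk710). These comparisons share strains with each other and with those of mut-16, so their values are not independent of the ones above. Between sosi-1 and eri-6[e-f] 33.6% of features were called, 20.2% higher and 13.3% lower. Of the 8 genes 2 were called, and both were higher in sosi-1. They were gld-1, which rose by 1.96 ± 0.29 (adjusted p = 1.87e-05), and tra-2, which rose by 1.36 ± 0.31 (adjusted p = 0.000879), neither with any overlap between the libraries given above. Between the double deletion and eri-6[e-f] 19.1% of features were called, 8.72% higher and 10.4% lower. Of the 8 genes 2 were higher in the double deletion, fog-3 by 1.18 ± 0.30 (adjusted p = 0.00358) and fog-1 by 1.18 ± 0.33 (adjusted p = 0.00705). Both calls were lost when libraries were scaled by size alone, and that of fog-1 also without eri-6[e-f] replicate 1 (0.96) or replicate 2 (0.88). Without eri-6[e-f] replicate 3 the fog-1 value was 1.99. The double deletion against sosi-1, with 41.7% of features called, had 4 genes called, fog-2 higher by 1.25 ± 0.18 (adjusted p = 3.66e-06), fog-3 higher by 1.11 ± 0.27 (adjusted p = 0.000934), tra-2 lower with −1.63 ± 0.31 (adjusted p = 9.17e-05) and gld-1 lower with −1.39 ± 0.29 (adjusted p = 0.000219). The rises of fog-2 and fog-3 did not reach 2-fold under scaling by library size alone (0.68 and 0.53), and that of fog-3 was 0.92 without sosi-1 replicate 2.

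Among the strains with mut-16(pk710), sosi-1 mut-16 against eri-6[e-f] mut-16 called 0 of 8 genes with edgeR and with DESeq2 at 9.44% of features, and 5 had an unadjusted p under 0.05. The triple mutant against eri-6[e-f] mut-16 likewise called 0 of 8 by both tools at 12% of features, with 2 at an unadjusted p under 0.05, tra-2 with a difference of 0.93 ± 0.31 (adjusted p = 0.0277) and fog-3 with 0.88 ± 0.25 (adjusted p = 0.0142). Against sosi-1 mut-16 the triple mutant had 4 genes higher, with 20.7% of features called, 8.67% higher and 12% lower. They were tra-2, higher by 1.36 ± 0.31 (adjusted p = 0.00188), fog-1 by 1.20 ± 0.32 (adjusted p = 0.00589), fog-3 by 1.13 ± 0.25 (adjusted p = 0.00145) and gld-1 by 1.12 ± 0.28 (adjusted p = 0.00413). None of the 4 overlapped between these strains. The gld-1 call was lost without sosi-1 mut-16 replicate 1 (0.94).

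In prg-1; ergo-1 set against prg-1; hrde-1, the mRNA test called 1 of the 8 genes, with 29.1% of features called. Of all features 4.66% were called higher and 24.4% lower. The median log2 difference was 0.638 over the 8 genes and −0.162 over all features. fog-1 had 26.0, 17.8 and 27.03 CPM in prg-1; ergo-1 and 12.2, 10.9 and 9.31 CPM in prg-1; hrde-1. The strains did not overlap, and fog-1 was higher in prg-1; ergo-1 by 1.13 ± 0.32 (adjusted p = 0.00562), a call that scaling by library size alone removed (0.81). fog-2 had 54.98, 66.9 and 52.4 CPM against 25.2, 27.9 and 34.2 CPM, with no overlap either, and a difference of 0.998 ± 0.18 (adjusted p = 9.37e-05) that just missed the 2-fold limit. gld-1 had a difference of 0.93 ± 0.28 (adjusted p = 0.00853) and fem-3 of 0.72 ± 0.19 (adjusted p = 0.00253). With each of the 6 libraries left out in turn, 2 of 8 genes were called. The oocyte sum was 7340 to 11900 CPM in prg-1; ergo-1 and 4460 to 6060 CPM in prg-1; hrde-1, and the sperm sum 1560 to 1810 and 2830 to 3820 CPM. The sum of the 16 somatic genes was 22300 to 40500 CPM in prg-1; ergo-1 and 5980 to 7250 CPM in prg-1; hrde-1. Of these genes 3 were called higher and 3 lower. All of these sums thus differed between the strains. Their part in these differences was not tested.

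Small RNAs of the same genes were counted per gene, without separation by strand or small RNA class. Levels of small RNA split the 8 genes. tra-2 and fog-1 had fewer small RNA counts in every strain with mut-16(pk710) than in every deletion strain without it, while fog-2, fog-3, gld-1, fbf-1 and fbf-2 had more, and fem-3 lay between 18.5 and 25.5 CPM in these 6 strains. These levels are relative to all small RNA in the library. When libraries were scaled to the counts of 258 microRNA genes instead, the median over all features with mut-16(pk710) went from −0.41, −0.365 and −0.249 to −1.6, −1.37 and −1.67 in eri-6[e-f], sosi-1 and the double deletion. Under that scaling the losses of tra-2 and fog-1 became larger, and every gain was smaller than 2-fold or turned into a loss.

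**Figure D4:**
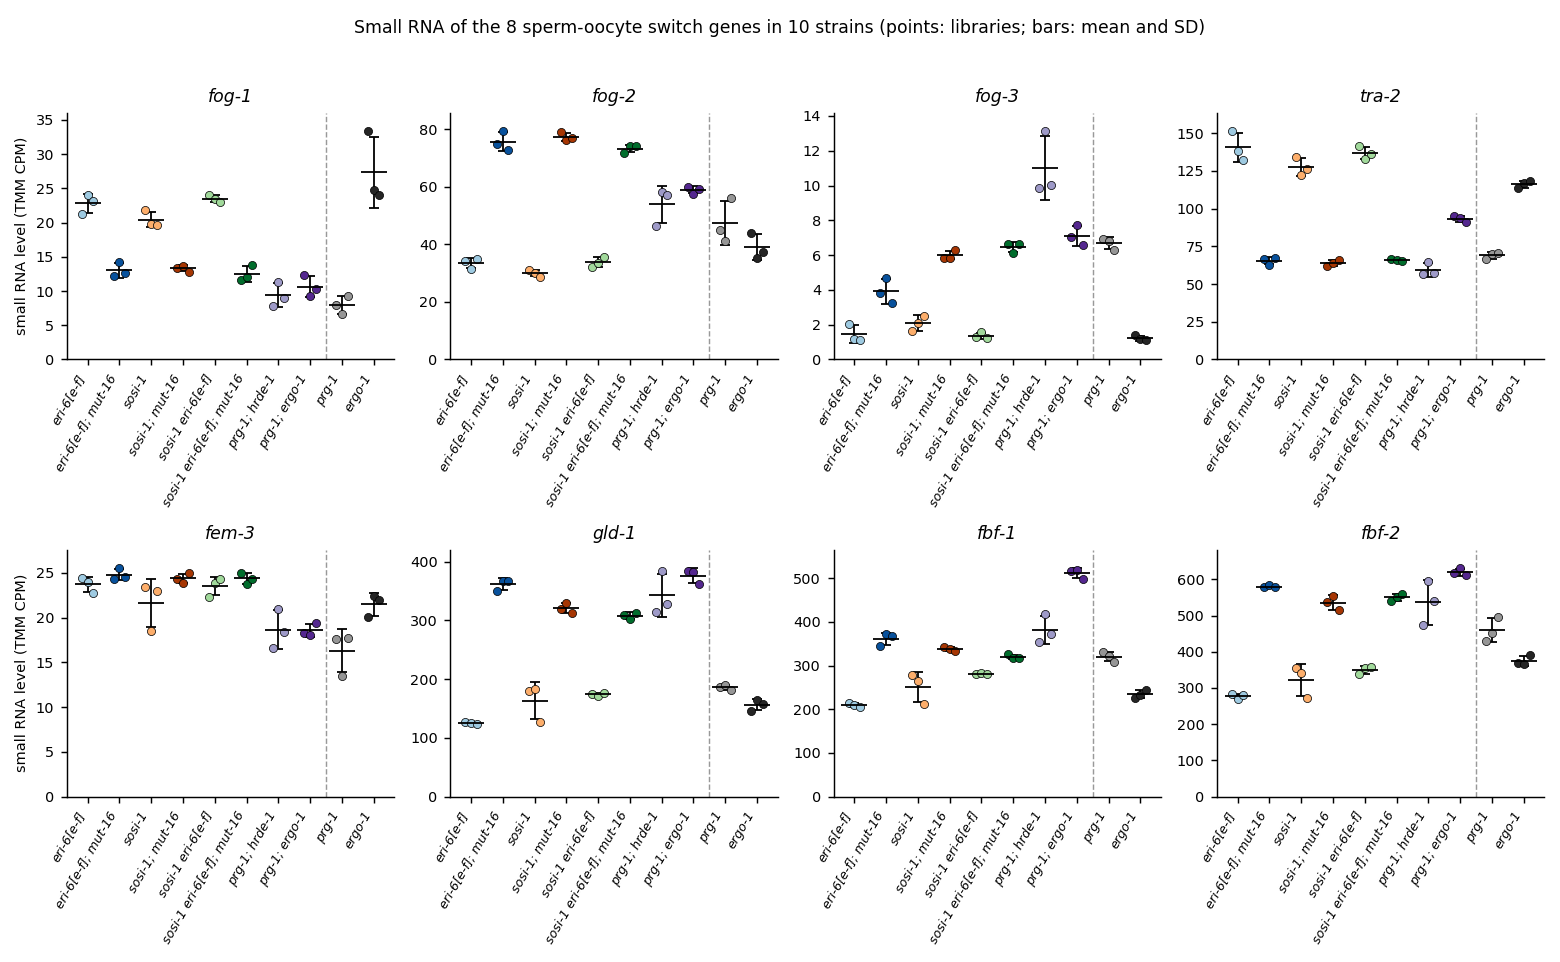
Small RNA level in TMM-scaled CPM (vertical axes, each from 0) for the 8 switch genes in 10 strains; points are libraries, and bars give the mean and SD of 3. tra-2 is at 128 to 141 CPM in the deletion strains and at 63.8 to 65.7 CPM with mut-16(pk710), whereas fog-2 goes from 30 to 33.8 CPM up to 73.3 to 77.3 CPM. The prg-1 and ergo-1 single mutants were scaled apart from the other strains.

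In small RNA, mut-16 called 5 of the 8 genes in eri-6[e-f], 4 higher and 1 lower, where 55.2% of features were called. In sosi-1 it called 2, both higher, with 55.8% of features called, and in the double deletion 3, 2 higher and 1 lower, with 51.1% called. Of all features 14.4%, 13.9% and 12.3% were called higher in these backgrounds, and 40.8%, 41.8% and 38.8% lower. The median of the 8 genes was 0.925, 0.579 and 0.419 in the 3 backgrounds, above that of all features. Scaled to microRNA counts, 2, 2 and 3 genes were called, all of them lower. By the test between backgrounds 0 of 8 genes were called with edgeR or DESeq2, against 9.58% of features, although 5 had an unadjusted p under 0.05 and 3 an adjusted p under 0.05, with spreads of 0.71 for gld-1 (adjusted p = 0.000996), 0.60 for fbf-1 (adjusted p = 0.000641) and 0.41 for fbf-2 (adjusted p = 0.0201).

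tra-2 small RNA was at 151.3, 138.2 and 132.5 CPM in eri-6[e-f] and 66.5, 62.8 and 67.2 CPM in eri-6[e-f] mut-16. In sosi-1 it was at 134.1, 122.5 and 126.3 CPM, and in sosi-1 mut-16 at 61.7, 64.1 and 65.7 CPM. The double deletion had 141.3, 133.2 and 136.3 CPM and the triple mutant 66.3, 65.7 and 65.2 CPM. The strains with and without mut-16(pk710) were far apart in each background. tra-2 small RNA fell by 1.11 ± 0.06 in eri-6[e-f] (adjusted p = 2.26e-14) and by 1.06 ± 0.05 in the double deletion (adjusted p = 3.86e-14), and it had −0.9999 ± 0.05 in sosi-1 (adjusted p = 9.6e-14), a hair short of the 2-fold limit. That last value was past the limit in each of the 6 analyses that left out 1 library, from −1.07 to −1.02, and with DESeq2 at −1.11. Scaled to microRNA counts the differences were −2.30, −2.01 and −2.49 in these backgrounds. The mRNA of tra-2 in the same strains, given above, had differences of 0.92, −0.87 and 2.12, so the small RNA moved one way in 3 backgrounds in which the mRNA did not.

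fog-1 small RNA had the same direction at a smaller size. It was at 21.3, 24.0 and 23.1 CPM in eri-6[e-f] against 12.2, 14.3 and 12.6 CPM in eri-6[e-f] mut-16, a difference of −0.80 ± 0.11 (adjusted p = 8.31e-07). In sosi-1 it was −0.62 ± 0.11 (adjusted p = 1.59e-05) and in the double deletion −0.92 ± 0.11 (adjusted p = 7.35e-08), with no overlap in either. None of these reached 2-fold, and all 3 did under microRNA scaling, at −1.996, −1.64 and −2.35.

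fog-2 small RNA had 34.2, 31.5 and 35.0 CPM in eri-6[e-f] and 75.0, 79.3 and 72.9 CPM in eri-6[e-f] mut-16. In sosi-1 it had 31.02, 30.1 and 28.8 CPM against 78.96, 76.2 and 76.8 CPM, and in the double deletion 32.3, 33.5 and 35.7 CPM against 71.8, 74.1 and 74.1 CPM. The groups were far apart in each background. fog-2 rose by 1.18 ± 0.07 (adjusted p = 2.03e-13), 1.37 ± 0.07 (adjusted p = 1.09e-14) and 1.12 ± 0.07 (adjusted p = 4.3e-13), but scaled to microRNA counts its differences were −0.02, 0.35 and −0.32, with no call. Its paralog ftr-1 had 0.78, 0.68 and 0.62, not called, and fog-2 summed with ftr-1 in the double deletion had 0.90.

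fog-3 small RNA was low, with 2.03, 1.20 and 1.12 CPM in eri-6[e-f] and 3.85, 4.66 and 3.22 CPM in eri-6[e-f] mut-16. In sosi-1 it was at 1.62, 2.12 and 2.53 CPM against 5.84, 5.86 and 6.27 CPM, and in the double deletion at 1.28, 1.56 and 1.24 CPM against 6.65, 6.13 and 6.64 CPM. All libraries with mut-16(pk710) were above all without. fog-3 rose by 1.42 ± 0.21 (adjusted p = 1.84e-06), 1.52 ± 0.19 (adjusted p = 1.2e-07) and 2.25 ± 0.20 (adjusted p = 5.94e-10), and under microRNA scaling it kept that side without a call, at 0.22, 0.52 and 0.83. Small RNAs of 26, 33 and 35 of 40 sperm genes tested also rose with mut-16(pk710), and 3, 3 and 2 fell, against 15, 6 and 27 higher and 4, 3 and 4 lower under microRNA scaling. Their summed level over 42 genes was lower, at 99.6 to 125 against 261 to 271 CPM, 224 to 236 against 310 to 340 CPM and 218 to 236 against 255 to 271 CPM. The part of sperm content in the fog-3 values was not tested. Of the 8 genes fog-3 was the one with the higher side in both mRNA and small RNA in all 3 backgrounds under TMM scaling.

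gld-1 small RNA was at 126.7, 124.7 and 124.2 CPM in eri-6[e-f] and 350.2, 367.4 and 368.0 CPM in eri-6[e-f] mut-16. It rose by 1.53 ± 0.09 (adjusted p = 8.36e-13). In sosi-1 its libraries were at 180.1, 183.4 and 126.9 CPM, where replicate 3 was the low one, against 319.3, 330.5 and 313.1 CPM in sosi-1 mut-16. Neither this background, at 0.98 ± 0.09 (adjusted p = 1.49e-09), nor the double deletion, at 0.82 ± 0.09 (adjusted p = 2.63e-08), reached 2-fold. Without sosi-1 replicate 3 the value in sosi-1 was 0.76. Scaled to microRNA counts gld-1 had 0.34, −0.05 and −0.61, none called, so its direction depended on the scaling in sosi-1 and the double deletion. The summed small RNA of the 20 oocyte genes was 2310 to 2660 CPM in the 3 deletion strains and 4260 to 4550 CPM in those with mut-16(pk710), with 3, 5 and 3 genes called higher under TMM scaling and 0 under microRNA scaling. Of 14 somatic genes tested 11, 10 and 10 were lower under both. The part of these in the gld-1 values was not tested.

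The small RNAs of the PUF pair were higher with mut-16(pk710) as well. fbf-2 had 282.5, 270.0 and 280.5 CPM in eri-6[e-f] against 578.3, 582.9 and 578.2 CPM in eri-6[e-f] mut-16. It rose by 1.06 ± 0.08 (adjusted p = 3.04e-11), whereas under microRNA scaling it had −0.13 and summed with fbf-1 it had 0.95. Its means were 322 ± 44.4 CPM in sosi-1 against 535 ± 20.3 CPM with mut-16(pk710), and 350 ± 10.9 CPM in the double deletion against 550 ± 10.1 CPM in the triple mutant, differences of 0.73 and 0.65. fbf-1 had 209 ± 5.01 against 362 ± 13.9 CPM in the eri-6[e-f] background, 252 ± 34.4 against 338 ± 4.97 CPM in sosi-1, and 282 ± 1.32 against 320 ± 5.1 CPM in the double deletion, with differences of 0.79, 0.42 and 0.18 and no call. fem-3 had 0.07, 0.17 and 0.06, and its highest and lowest strain means in the larger experiment were 24.8 ± 0.605 CPM (eri-6[e-f] mut-16) and 18.6 ± 0.713 CPM (prg-1; ergo-1). fem-3 was called in none of the 11 mRNA and 12 small RNA comparisons.

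Small RNAs of the switch genes differed by less than 2-fold between the deletion strains. Without a wild type, what the deletions themselves did was not measured. Between the 3 deletion strains 0 of 8 genes were called in sosi-1 against eri-6[e-f] (7.45% of features), the double deletion against eri-6[e-f] (1.21%) or the double deletion against sosi-1 (9.43%). Among strains with mut-16(pk710), again 0 of 8 were called in sosi-1 mut-16 against eri-6[e-f] mut-16 (7.57%), the triple mutant against eri-6[e-f] mut-16 (6.76%) or the triple mutant against sosi-1 mut-16 (0.923%). DESeq2 also called 0 in each of these 6, and with edgeR 6, 3, 3, 1, 3 and 0 genes had an unadjusted p under 0.05, in the order given. Most features were not called in these small RNA comparisons either. In mRNA the same comparisons had called 2, 2, 4, 0, 0 and 4 genes. There 33.6%, 19.1%, 41.7%, 9.44%, 12% and 20.7% of all features were called, more than in small RNA in each.

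In prg-1; ergo-1 against prg-1; hrde-1, 0 of 8 genes were called in small RNA by edgeR or DESeq2, at 23.6% of features, and 4 had an unadjusted p under 0.05. tra-2 had 94.8, 93.6 and 91.1 CPM in prg-1; ergo-1 and 56.7, 64.8 and 57.01 CPM in prg-1; hrde-1, with no overlap and a difference of 0.64 ± 0.06 (adjusted p = 2.66e-09). Its value was 0.59 without the prg-1; hrde-1 library that stood apart and 0.66 without the prg-1; ergo-1 library labelled as mRNA. fog-3 had 7.04, 7.73 and 6.59 CPM against 9.87, 13.1 and 10.1 CPM, also with no overlap and a difference of −0.66 ± 0.17 (adjusted p = 0.00306), or −0.75 and −0.60 without those libraries. Of 40 sperm genes tested 28 were lower and 2 higher in prg-1; ergo-1, and under microRNA scaling 0 lower and 2 higher.

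The smaller experiment compared ergo-1 with prg-1 single mutants in small RNA and called 2 of the 8 genes, with 46% of 11746 features called. fog-1 had 7.95, 6.61 and 9.28 CPM in prg-1 and 33.4, 24.7 and 24.1 CPM in ergo-1. fog-3 had 6.93, 6.84 and 6.28 CPM in prg-1 and 1.38, 1.17 and 1.10 CPM in ergo-1. Both sperm-fate genes were without overlap but in opposite directions, fog-1 higher in ergo-1 by 1.79 ± 0.16 (adjusted p = 4.84e-07) and fog-3 lower with −2.46 ± 0.21 (adjusted p = 2.63e-07), and both calls held under microRNA scaling at 2.22 and −2.04. tra-2 was at 66.5, 70.2 and 70.3 CPM in prg-1 and 113.6, 117.0 and 118.0 CPM in ergo-1, again apart, with a difference of 0.75 ± 0.06 (adjusted p = 1.2e-07) that was called at 1.17 under microRNA scaling. Small RNAs of 31 of 36 sperm genes tested were lower in ergo-1 and 1 higher under TMM and microRNA scaling alike, and the sum over 42 sperm genes was 796 to 837 CPM in prg-1 and 253 to 290 CPM in ergo-1. The oocyte sum was 2580 to 2720 CPM in prg-1 and 2470 to 2590 CPM in ergo-1, and that of the 16 somatic genes 55.9 to 62.6 and 124 to 160 CPM. The part of these shifts in the values of the switch genes was not tested. The other 5 genes had differences between −0.45 for fbf-1 and 0.40 for fem-3. Since the labels leave temperature and time unclear, these could differ between the strains, and their part was not tested.

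The rest of the sex determination pathway was followed through 14 genes. In mRNA, mut-16 called 4 of 14 higher in eri-6[e-f], 1 higher in sosi-1, and 4 higher and 1 lower in the double deletion. Of all features 25.7%, 13.7% and 50.2% were called in these comparisons, so the pathway genes were called at shares near or below that of features in general. Their median differences were 0.63, −0.397 and 0.605. Higher in eri-6[e-f] were sex-1, which counts X chromosomes, by 1.72 ± 0.27, fox-1, which acts with it, by 1.62 ± 0.25, sdc-1, a dosage compensation gene, by 1.56 ± 0.35, and fem-2, a partner of fem-3, by 1.04 ± 0.25. The double deletion gave sdc-3 at 2.46 ± 0.32, sdc-1 at 2.42 ± 0.34, sdc-2 at 1.89 ± 0.26 and sex-1 at 1.52 ± 0.25. her-1, whose protein is the ligand that inhibits TRA-2, rose by 1.73 ± 0.46 in sosi-1 (adjusted p = 0.00897) and fell by 1.21 ± 0.30 in the double deletion (adjusted p = 0.00106), where scaling by library size alone left it uncalled at −0.66. tra-1 itself was not called in any of the 3, with differences of 0.07, 0.07 and 0.61. Between deletion strains, sosi-1 against eri-6[e-f] had 4 of 14 higher, sdc-1 by 2.06 ± 0.35, fox-1 by 1.64 ± 0.25, sex-1 by 1.53 ± 0.27 and sdc-3 by 1.18 ± 0.32, and her-1 lower with −1.73 ± 0.53. The double deletion against sosi-1 had the reverse for sdc-1 at −2.05 ± 0.34, sdc-3 at −1.63 ± 0.31, sex-1 at −1.19 ± 0.25 and her-1 at 2.96 ± 0.40, with sdc-2 at −1.22 ± 0.26, in libraries shared with the first comparison. sel-10, an F-box protein gene that acts on FEM proteins, was higher in the double deletion than in eri-6[e-f] by 1.06 ± 0.39. her-1 levels were low, so its values rest on few counts.

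In small RNA, mut-16 called 5, 6 and 4 of 14 pathway genes lower in eri-6[e-f], sosi-1 and the double deletion and 0 higher, and under microRNA scaling 7, 7 and 10 lower. Of all features 40.8%, 41.8% and 38.8% were called lower, so these counts were near or under the share of features in general. The medians of the list, −0.318, −0.329 and −0.341, were also close to those of all features. The gene with the largest change was xol-1, the switch gene that reads the number of X chromosomes at the top of the pathway, with differences of −7.33 ± 0.22, −7.46 ± 0.20 and −6.93 ± 0.20 (adjusted p = 9.31e-19, 1.5e-19 and 5.29e-19). sdc-1 had −2.61 ± 0.08, −2.23 ± 0.07 and −2.26 ± 0.07, and sdc-3 had −2.54 ± 0.08, −2.52 ± 0.08 and −2.45 ± 0.08. tra-3, a calpain protease gene that promotes female fate, had −1.24 ± 0.09, −1.01 ± 0.08 and −1.48 ± 0.08. These 4 were called lower in all 3 backgrounds. mab-3, a transcription factor gene of male development, was lower in eri-6[e-f] with −1.97 ± 0.38 and in sosi-1 with −1.52 ± 0.32, and sdc-2 in sosi-1 with −1.0003 ± 0.07. tra-2 was the only one of the 8 switch genes whose small RNA was called lower with mut-16(pk710) under TMM scaling. The mRNA of xol-1 had differences of 0.57, 0.70 and 0.60, not called.

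In the ergo-1 against prg-1 comparison 5 of the 14 pathway genes were higher in ergo-1 and 0 lower, beside 30.4% of all features higher and 15.6% lower. xol-1 small RNA was at 1.02, 0.380 and 0.354 CPM in prg-1 and at 160.1, 154 and 151.2 CPM in ergo-1, a difference of 8.10 ± 0.16 (adjusted p = 7.11e-14). The others were mab-3 at 4.501 ± 0.54, sdc-1 at 2.91 ± 0.11, tra-3 at 1.61 ± 0.10 and her-1 at 1.47 ± 0.36. fog-1, called in the same direction at 1.79, was the switch gene nearest to them.

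**Figure D5:**
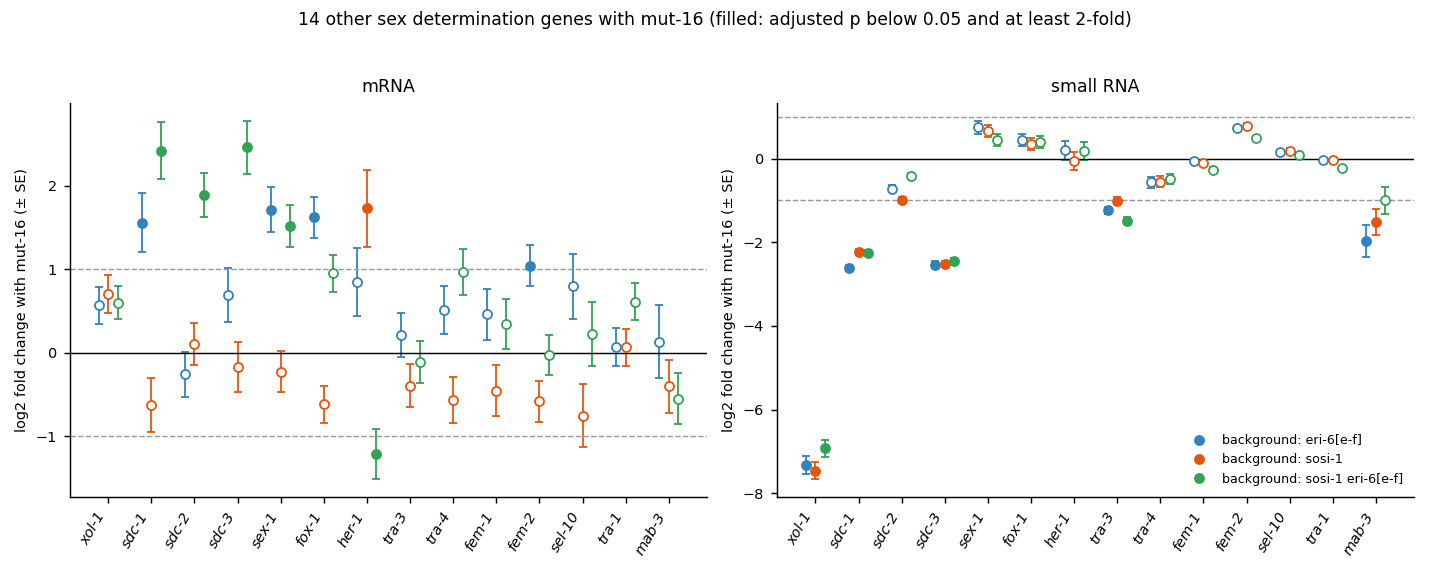
log2 fold change between strains with and without mut-16(pk710) (vertical axes) for 14 further genes of the sex determination pathway in 3 deletion backgrounds, in mRNA and small RNA; bars are standard errors, and filled points passed an adjusted p under 0.05 with at least a 2-fold difference. In small RNA xol-1 lies between −7.46 and −6.93, with sdc-1 and sdc-3 near −2.5, whereas no small RNA of the list is called higher.

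A second list held 33 regulators that act on the switch genes or beside them, 32 of which are in the files. It includes ftr-1, and it shares puf-5 with the oocyte list and glp-1 with the list of germline proliferation genes. In mRNA, mut-16 called 21 of 32 higher and 0 lower in eri-6[e-f], 2 higher and 8 lower in sosi-1, where 22 were not called, and 23 higher and 3 lower in the double deletion. The medians were 1.21, −0.866 and 1.54. Of all features 16.2%, 10.4% and 28.1% were higher and 9.48%, 3.24% and 22.1% lower. The effect differed between backgrounds for 30 of 32, beside 60.1% of all features. It also differed for 9 of 14 pathway genes, 17 of 20 oocyte genes and 29 of 42 sperm genes. For genes of germline proliferation and meiosis the count was 14 of 18, and for somatic genes 9 of 16. Scaled by library size alone, 1 rather than 8 were called lower in sosi-1. The oocyte sums given above moved the same way, and their part was not tested.

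Among the regulators, glp-1, the Notch receptor gene that keeps germline stem cells dividing, had 1.01 ± 0.40, −1.11 ± 0.39 and 2.59 ± 0.41 in eri-6[e-f], sosi-1 and the double deletion, called in each. cpb-1, a CPEB-family gene needed for sperm formation, had 1.69 ± 0.33, −1.12 ± 0.31 and 2.21 ± 0.32. Scaling by library size alone kept the sosi-1 call of cpb-1 and not that of glp-1. cpb-2 was higher in all 3 backgrounds, by 2.66 ± 0.61, 1.27 ± 0.34 and 2.15 ± 0.37, and its effect was not called as different between them (adjusted p = 0.139). The other regulators with the largest rises in eri-6[e-f] were 3 PUF-family genes, puf-7 by 1.94 ± 0.31, puf-3 by 1.87 ± 0.33 and puf-5 by 1.78 ± 0.36. In the double deletion they were mog-5 by 2.62 ± 0.41, gld-4, a poly(A) polymerase gene, by 2.51 ± 0.35, and mog-1 by 2.48 ± 0.39, where mog-1 and mog-5 encode RNA helicases needed for the switch to oocytes. The 3 lower there, named after their values were seen, were nos-2 at −2.01 ± 0.23, ftr-1 at −1.57 ± 0.19 and mog-2 at −1.28 ± 0.19, the last uncalled when scaled by library size alone.

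Small RNAs of the regulators had 12 higher and 2 lower in eri-6[e-f], 7 higher and 2 lower in sosi-1, 3 higher and 2 lower in the double deletion, beside 14.4%, 13.9% and 12.3% of all features higher and 40.8%, 41.8% and 38.8% lower, and 0 differed between backgrounds. Under microRNA scaling 0 were higher and 3, 2 and 3 lower. The 2 lower in each background were cpb-1 and nanp-1. cpb-1 small RNA had −1.94 ± 0.07, −1.78 ± 0.07 and −2.15 ± 0.07, and −3.135, −2.80 and −3.58 under microRNA scaling. cpb-2 small RNA rose by 1.45 ± 0.19, 1.497 ± 0.16 and 2.34 ± 0.18, with 0.29, 0.47 and 0.89 and no call under microRNA scaling. cpb-3, also of the CPEB family, had 1.36 ± 0.07, 0.94 ± 0.07 and 0.87 ± 0.07, called in eri-6[e-f] alone and not under microRNA scaling. In ergo-1 against prg-1, cpb-1 was higher by 2.39 ± 0.08 and cpb-2 lower with −2.08 ± 0.22, while cpb-3 was at −0.35 ± 0.06 and not called, beside fog-1 at 1.79 and fog-3 at −2.46.

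Likeness of mRNA patterns was measured by Pearson's r of log2 levels over the 24 mRNA libraries, which share scaling and, within a strain, genotype, so r is given without a p. tra-2 and gld-1 had an r of 0.877, fbf-1 and fbf-2 of 0.808, fog-2 and fem-3 of 0.789 and fog-1 and gld-1 of 0.698, whereas fog-2 and tra-2 had −0.345. Over all features tested the patterns nearest to gld-1 were mex-3 at 0.987, tpxl-1 at 0.986 and ced-3 at 0.986. Nearest to tra-2 were npp-14 at 0.989, capg-1 at 0.989 and pold-1 at 0.987, and nearest to fog-2 were orc-4 at 0.99, npp-23 at 0.985 and mdf-2 at 0.985. fog-1 was nearest to sas-5 at 0.98, spr-2 at 0.976 and F56C9.3 at 0.975. The genes with lower or narrower levels had weaker matches, fog-3 with K08H2.5 at 0.887, nhr-235 at 0.883 and amt-1 at 0.88, fem-3 with B0041.5 at 0.927, C17H12.2 at 0.91 and spot-1 at 0.909. fbf-1 was nearest to aatf-1 at 0.925, smg-9 at 0.897 and F56G4.6 at 0.882, and fbf-2 to spsb-1 at 0.929, usp-3 at 0.916 and cox-10 at 0.909.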

How the data were processed

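Poly(A)-selected mRNA and size-selected small RNA were sequenced by the authors, who deposited 1 table of expected counts (estimated counts, not whole numbers) per library. Salmon, HISAT2 and cutadapt are listed in the submitters' processing notes. Their versions and roles, the genome build and the strand of counting are not stated there, so no coordinates are printed. The expected counts were summed by gene name, rounded to whole numbers, filtered with filterByExpr by strain, scaled with TMM and tested with edgeR 4.0.16 (quasi-likelihood F test, R 4.3.3), with limma 3.58.1 as its base. Strains with both assays entered 1 fit per assay, and the smaller experiment a fit of its own, since it was scaled apart. The effect of mut-16 was compared between backgrounds by an F test of 2 contrasts, called when the highest and lowest of the 3 effects also differed by at least 1 on the log2 scale. Depths are given with the results and limit the precision of fog-3 most.

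Alternatives were RLE and library-size scaling, scaling of small RNA to microRNA counts, no filter, DESeq2 1.42.0, a replicate block, only the strains compared, each library left out, and paralogs summed. The procedure was also run on simulated data, with as many features raised as lowered and a common spread for all. Such data do not probe how the calls reported here depend on scaling. All 8 members are described. From each further list, up to 4 genes with the largest change among those called for mut-16 were eligible to be named, with any pathway gene called in a comparison and ftr-1. For each member the 3 features of highest r were named. The members and lists were chosen with earlier results of these data known.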

Additional observations from a re-analysis of the deposited data

Results flagged for a closer look

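For 4 genes the effect of mut-16(pk710) on mRNA differed between the deletion backgrounds by the test of that difference, given as the highest minus the lowest of the 3 log2 effects. It was 2.99 for tra-2, 2.73 for gld-1, 1.88 for fog-1 and 1.02 for fbf-1. tra-2 and gld-1 were on opposite sides in sosi-1 and in the other backgrounds, and fbf-1 rested on values close to the 2-fold limit. With 60.1% of all features past the same test, such a difference was common in these libraries.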

How the results depend on the processing

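Of 311 counts of called members under alternatives, 281 stayed within 1.5 times the reported count, as did 2466 of 2557 values of single genes on their side of the threshold. In mRNA, the mut-16 count in eri-6[e-f] was 1 with only the strains compared and 1 to 3 with a library left out, and in sosi-1 0 to 2 with a library left out. The double deletion against eri-6[e-f] gave 0 with library size only, 1 with only the strains compared and 1 to 2 with a library left out, and against sosi-1 it gave 2 with library size only. sosi-1 mut-16 against eri-6[e-f] mut-16 gave 0 to 1 with a library left out, and the triple mutant against eri-6[e-f] mut-16 gave 2 with library size only and 0 to 1 with a library left out. prg-1; ergo-1 against prg-1; hrde-1 gave 0 with library size only, 2 without a filter, 3 with only the strains compared and 2 with any library left out.

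In small RNA, scaling to microRNA counts gave 2 members in eri-6[e-f] and 1 between the prg-1 double mutants. With a library left out, 3 to 4 members were called in sosi-1 and 0 to 1 between backgrounds. microRNA scaling turned fog-2 to −0.0172 in eri-6[e-f] and −0.32 in the double deletion, and fbf-2 to −0.13 in eri-6[e-f]. It also gave fem-3 −1.38 in the double deletion. Over all features it took the number that differed between backgrounds from 1473 to 46. Likewise it took sosi-1 against eri-6[e-f] from 1146 to 72, the double deletion against eri-6[e-f] from 186 to 41 and against sosi-1 from 1450 to 22, and, with mut-16(pk710), the first 2 of these from 1164 to 11 and from 1040 to 36, and the third from 0.923% of features to 18 features. The cause was not tested. In mRNA, scaling by library size alone moved the median of all features for mut-16 in the double deletion from 0.09 to 0.64, for sosi-1 against eri-6[e-f] from 0.04 to 0.39 and for the double deletion against sosi-1 from −0.17 to −0.75. In mRNA, sosi-1 mut-16 against eri-6[e-f] mut-16 had 1451 features called, and 2622 with library size only.

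The replicate block gave 2 members between the prg-1 double mutants in mRNA. Replicate numbers did not pair the libraries: same-numbered mRNA libraries had a mean r of −0.0238 and 4 of 24 correlated best with their own number.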
